A study of Homo sapiens with 6 samples.

Results

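The genes described here encode NF-kB, its I-kB inhibitors and the feedback enzyme A20. They are the subunit genes NFKB1, NFKB2, RELA, RELB and REL, the inhibitor genes NFKBIA, NFKBIB and NFKBIE, and TNFAIP3, which encodes A20. They were chosen by name, and all 9 were found among the 29354 gene names of the expression table. They held 21 of the 42634 m6A peaks, regions of messenger RNA enriched for N6-methyladenosine, and 16 of the 19983 peaks that the authors compared between treatments.

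The cells were Kasumi-1, a human cell line established from acute myeloid leukaemia with the RUNX1-RUNX1T1 fusion and labelled wild type. They received 100 uM CoCl2 and 10 nM echinomycin together for 24 hours, in 3 biological replicates. CoCl2 mimics hypoxia by stabilising hypoxia-inducible factors, and echinomycin blocks the binding of such factors to DNA. Each replicate gave an m6A immunoprecipitation (IP) library and an input library of the fragmented poly(A) RNA, so there were 3 IP and 3 input libraries. In the authors' comparison the combined treatment was set against CoCl2 alone, so both arms had CoCl2 and echinomycin was what differed. No library of CoCl2 alone was analysed here, and the RNA level of each gene is therefore given in the combined treatment only. Of 8 genes that mark this line, 7 lay at 1 FPKM or more (fragments per kilobase, scaled to library size), among them MPO at 56.2 ± 2.74 and KIT at 40.4 ± 1.87 FPKM (SD, n = 3), while ELANE lay at 0.0185 FPKM. The T cell gene CD3D also reached 32.1 ± 2.30 FPKM (SD, n = 3), with CD3E at 0.181 FPKM, and 2 of 4 B cell genes passed 1 FPKM, CD79A at 5.03 ± 0.597 and PAX5 at 2.57 ± 0.0739 FPKM (SD, n = 3). The depth of the libraries is unknown, since only FPKM values give their levels.

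NF-kB is a family of dimeric transcription factors built from subunits with a Rel homology domain. In resting cells I-kB proteins hold the dimers in the cytoplasm. Signals from tumour necrosis factor or Toll-like receptors activate the I-kB kinase, I-kB is degraded, and the dimers enter the nucleus and switch on inflammatory and survival genes. Their targets include NFKBIA and TNFAIP3, which close a negative feedback loop. In myeloid leukaemia NF-kB is known as a survival pathway.

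NF-kB binds a decamer called the kB motif, and several of these genes are known to be under its control. The sequences below are shown because they carry this shared element. RefSeq promoter windows of GRCh38.p14, running from 250 bases before to 50 bases after a start site, were given for 7 of the 9 genes, and RELB and NFKBIE had no window in that table. Searched on both strands, the kB consensus occurred in 6 of the 7 genes, against 13.3% of 27305 genes with such windows. A gene counted if any of its windows matched, and this background was not matched in number of windows per gene. Of 35116 single windows 11.3% held a match. RELA, the gene of the main activating subunit, had no match in its windows. For each of the 6 genes the match closest before a start site is printed 5′ to 3′ on the gene's strand, with the 10 bases of the motif in capitals. On the NFKBIA and TNFAIP3 lines the motif reads on the opposite strand.
NFKB1, chr4:102501300-102501329, plus strand, 49 bases before the start: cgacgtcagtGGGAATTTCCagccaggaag
NFKB2, chr10:102395674-102395703, plus strand, 21 bases before the start: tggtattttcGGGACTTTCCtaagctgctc
REL, chr2:60881518-60881547, plus strand, 46 bases before the start: gtcagccgcgGGAAATTCCCctcccgccag
NFKBIA, chr14:35404811-35404840, minus strand, 81 bases before the start: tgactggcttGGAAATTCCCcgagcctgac
NFKBIB, chr19:38899932-38899961, plus strand, 27 bases before the start: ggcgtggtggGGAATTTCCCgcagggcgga
TNFAIP3, chr6:137867194-137867223, plus strand, 55 bases before the start: aaagtcccgtGGAAATCCCCgggcctacaa
The REL and NFKBIB lines show the later of 2 overlapping matches, which also reads on the opposite strand. The starts named in these lines are those of the RefSeq windows, and the NFKB2 match lies before the last of 3 start sites. The NFKB2, REL and NFKBIB matches lie after the annotated gene starts used below, which are 102394110, 60881521 and 38899700. A match describes these letters and does not show that NF-kB was bound there in these cells.

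All 9 genes lay at 1 FPKM or more after the combined treatment, as did 42.1% of all gene names, and the inhibitor gene NFKBIA was the most abundant of them. The levels come from a whole culture, so fewer cells with a transcript and less RNA per cell cannot be told apart. NFKBIA, which encodes I-kB alpha, the classical inhibitor of RELA dimers, had 44.9, 43.9 and 48.7 FPKM in the 3 input libraries. RELA, the main transactivating subunit, followed with 39.7, 39.7 and 39.4 FPKM. The libraries of these genes did not overlap, and the mean of NFKBIA was 1.16 times that of RELA.

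TNFAIP3, whose product A20 edits ubiquitin chains and dampens the pathway, had 23.2, 23.4 and 24.3 FPKM. NFKB2, the precursor of the partner subunit of RELB in the non-canonical pathway, had 18.0, 19.9 and 16.8 FPKM. NFKBIE, the gene of I-kB epsilon, had 14.9, 15.2 and 14.3 FPKM. Each of these genes lay apart from its neighbours in the order, with no shared range.

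The lower end of the order was closely spaced. NFKBIB, which encodes I-kB beta, averaged 10.7 ± 0.728 FPKM (SD, n = 3), and NFKB1, the precursor of the DNA-binding partner of RELA, averaged 10.3 ± 0.568 FPKM (SD, n = 3). Their ranges of 10.1 to 11.5 FPKM for NFKBIB and 9.67 to 10.8 FPKM for NFKB1 overlapped, and they were the only neighbours in the order that did. RELB, the non-canonical subunit, averaged 9.53 ± 0.0483 FPKM (SD, n = 3), and REL, the c-Rel subunit of blood cells, 8.39 ± 0.219 FPKM (SD, n = 3). Among 12357 genes at 1 FPKM or more, REL stood at the 63.3 percentile and NFKBIA at 95.2, so each of the 9 genes was above the median of expressed genes.

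**Figure D1:**
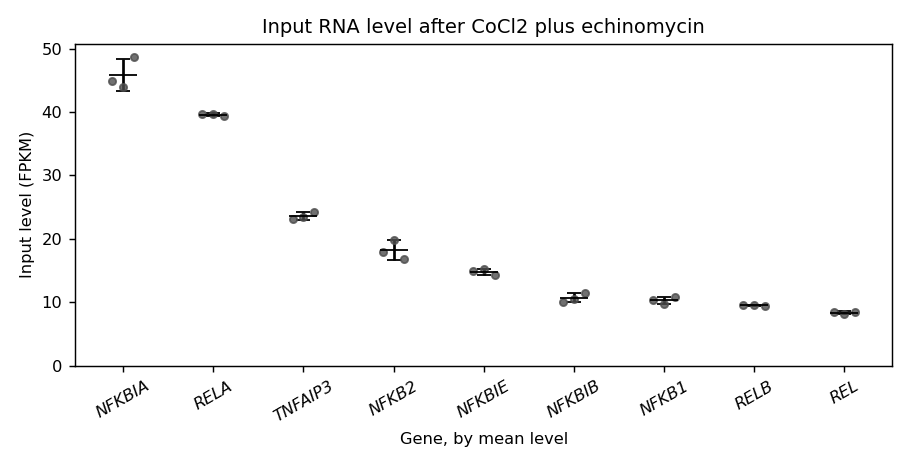
Input RNA level in FPKM of each gene (points, the 3 input libraries of CoCl2 plus echinomycin; bars, mean ± SD), ordered by mean. NFKBIA at 45.9 and RELA at 39.6 FPKM stand above the other genes, and only NFKBIB and NFKB1 overlap as neighbours.

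The m6A peak list marked 8 of the 9 genes, and NFKB1 was the exception. For comparison, 82.1% of genes at 1 FPKM or more had a listed peak, and so did 86.6% of 4722 genes whose input level lay within 2-fold of NFKB1. No peak assigned to another gene reached into NFKB1 either, on chromosome 4 from 102501331 to 102617302. By the authors' region label, of the 21 listed peaks 12 lay in 3' UTRs of 7 genes, 6 in 5' UTRs of 4 genes and 3 in other exons. The label is given once per peak. Peaks labelled 3' UTR were split into separate blocks in REL (proximal peak, 3 blocks), TNFAIP3 (proximal peak, 2 blocks) and NFKBIA (2 blocks). Not all bases of these peaks need therefore lie in the 3' UTR. Fold enrichment, the authors' own ratio of IP over input per peak, had a median of 4.66 over the 21 peaks and 4.53 over all peaks, with quartiles of 2.63 and 7.45 over all peaks. It comes with no replicate values.

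Among the subunit genes, REL was marked most strongly. Its listed peaks were labelled 3' UTR. On chromosome 2 the proximal one stood at 7.46, from 60920399 to 60923021. A pair of nearly identical peaks from 60927840 to 60930058 stood at 7.99 and 8.02. The pair shares nearly all its bases, and the counts given here take it as 2 peaks, as the authors list it. RELA carried 5 peaks, the highest at 5.59 in the 3' UTR on chromosome 11 from 65654197 to 65654797. The other 3' UTR peaks of RELA stood at 3.77 and 3.39, and those in an exon and the 5' UTR at 1.52 and 1.47. NFKB2 had a single exonic peak of 2.10, and RELB a single 3' UTR peak of 1.60, so the subunit genes of the non-canonical pathway ranked in the lowest 15.1% and 5.2% of all listed peaks.

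Among the inhibitors, NFKBIE had the highest enrichment of all 9 genes. Its 3' UTR peak of 11.6, on chromosome 6 from 44258166 to 44259234, reached the annotated end of the gene and ranked at the 90.9 percentile of all peaks. A 5' UTR peak of NFKBIE stood at 6.05. NFKBIB had 1 peak, in the 3' UTR, at 4.27. NFKBIA, the most abundant of the genes, had values of 3.10 at its first 268 transcribed bases, 2.21 in the 3' UTR and 5.90 at a peak of 61 bases whose log10 p of -3.12 was the weakest of the 21. The GGAC core of the m6A consensus is not in the first 50 transcribed bases of NFKBIA in RefSeq, where 18.9% of promoter windows hold it, which says nothing of the other bases under the peak.

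TNFAIP3 had peaks labelled 5' UTR and 3' UTR. Those labelled 3' UTR stood at 5.17 and 6.04, on chromosome 6 from 137878492 to 137880108 and from 137881219 to 137882146. The peak of 5.17 stops 3204 bases before the annotated gene end, and the peak of 6.04 stops 1166 bases before it. The 5' UTR peak that opens at the annotated gene start stood at 5.33. Another pair of peaks assigned to TNFAIP3, at 4.66 and 3.06, was uncertain in identity. The first began 514 bases before the gene and the second carried an exon of WAKMAR2, a noncoding gene on the opposite strand that overlaps this start and had 0.460 ± 0.0223 FPKM (SD, n = 3). Whether the authors assigned peaks by strand was not given in the sources used here. These peaks can therefore not be told apart from peaks of WAKMAR2. The 5' UTR peak of 5.33 also lies within WAKMAR2, which runs from 137823673 to 137868233, and shares bases with the peak of 4.66. The same limit holds for it and for the compared peak at the same place.

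**Figure D2:**
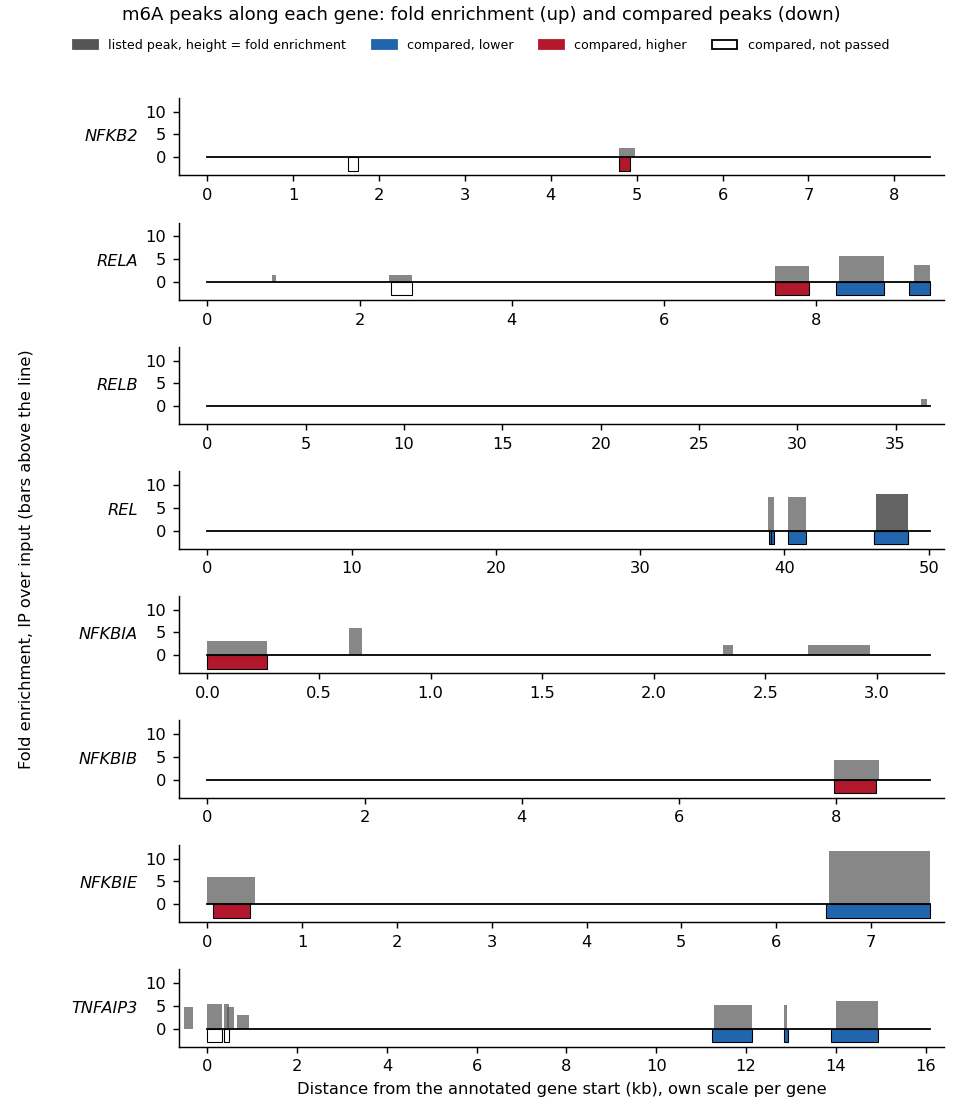
Peaks of the 8 genes with a listed peak, by distance in kb from the annotated gene start (each gene on its own scale). Grey bars above the line are listed peaks with their fold enrichment as height, and boxes below the line are peaks compared with CoCl2 alone (blue lower, red higher, white not passed; thin blocks are widened to stay visible). The blue boxes lie toward the 3' ends of RELA, REL, NFKBIE and TNFAIP3.

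Adding echinomycin to CoCl2 went with lower m6A enrichment at most peaks labelled 3' UTR in REL, NFKBIE, TNFAIP3 and RELA. The peaks of NFKBIA, NFKBIB and NFKB2 that passed were higher. A compared peak was found for 7 of the 9 genes, against 65.4% of genes at 1 FPKM or more. Of the 16 compared peaks 13 passed, with the authors' FDR values under a limit of 0.05 set here. Of these, 8 were lower and 5 higher by the authors' deposited table. Over all 19983 peaks 68.9% passed, 45.8% lower and 23.1% higher, so the split of these genes lay near that background. At an FDR under 0.01 the higher peaks came to 2 and the lower ones stayed at 8. In 3' UTRs, 8 of 10 were lower and 2 higher in the authors' deposited table, against 53.7% lower and 22.9% higher over all 3' UTR peaks. With the overlapping REL pair counted once, 7 of 9 were lower. Outside 3' UTRs, 3 of 6 peaks of the authors' deposited table passed, all 3 of them higher. Over all peaks, 28.1% were higher and 43.3% lower in 5' UTRs, and 19.0% were higher and 34.3% lower in other exons. The median over the 10 3' UTR peaks was a log2 fold change of -0.45 in the authors' deposited table, and over all 9514 3' UTR peaks it was also -0.45.

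The largest decrease was in REL. In the authors' deposited table its distal 3' UTR site had a log2 fold change of -0.91, which is 1.88-fold lower (FDR 1e-101). The proximal 3' UTR peak of REL stood at -0.31 on the log2 scale of the authors' deposited table (FDR 3.2e-05). RELA went both ways within its 3' UTR. By the authors' deposited table, its peak of 631 bases fell by 0.48 (log2, FDR 3.2e-24) and the peak of 271 bases that reaches the gene end fell by 0.42 (FDR 2.9e-06). The remaining 3' UTR peak of RELA, on chromosome 11 from 65655186 to 65655636, rose by 0.62 in the authors' deposited table (log2, FDR 0.038). Of 1343 genes with 2 or more passed 3' UTR peaks, 25.2% likewise had both directions.

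NFKB2 held the highest value among these genes. An exonic peak of 120 bases on chromosome 10, from 102398908 to 102399027, was 3.92-fold higher in the authors' deposited table (log2 1.97, FDR 1.4e-09), with 95.0% of all peaks below it. It was the only passed peak of these genes with a change of 2-fold or more, in a table where 6.01% of peaks were that much higher and 11.2% that much lower. Its enrichment over input after the combined treatment was low, at 2.10. The 5' UTR peak of NFKB2 stood at -0.48 (log2) in the authors' deposited table and did not pass (FDR 0.29). It was the only compared peak of these genes that overlapped no peak listed after the combined treatment.

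The inhibitor genes differed in direction. NFKBIE fell by 0.77 at its 3' UTR peak on the log2 scale of the authors' deposited table (FDR 6.3e-42) and rose by 0.72 at its 5' UTR peak (FDR 0.017). Of 1256 genes with passed peaks in both UTRs, 27.8% showed this arrangement and 16.3% the opposite one. NFKBIB rose by 0.47 at its 3' UTR peak in the authors' deposited table (log2, FDR 7.4e-05). NFKBIA rose by 0.24 at its first transcribed bases in the authors' deposited table (log2, FDR 0.028), a 1.19-fold difference. The NFKBIA peak in the 3' UTR was not among the compared peaks.

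TNFAIP3 was lower at both peaks labelled 3' UTR. The proximal one is split into blocks at 11248 to 12137 and 12857 to 12924 bases from the gene start. It stops 3174 bases before the gene end. In the authors' deposited table the proximal one fell by 0.55 (log2, FDR 1e-53) and the distal one by 0.15 (FDR 5.8e-05). The distal peak is thus 1.11-fold lower, so an FDR far below 0.05 went with a small change. At the 5' end of TNFAIP3 a log2 value of 0.25 in the authors' deposited table did not pass (FDR 0.091). NFKB1 and RELB had no compared peak.

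These fold changes carry no replicate values or errors, and how replicates were combined was not given in the sources used here. Their direction was read from the order of conditions naming the table. With log2 values below -4 in the authors' deposited table, 6.12% of 49 peaks overlapped a peak listed after the combined treatment, against 100% of 68 peaks at 4 or above. Relative to the median of all peaks, -0.43 (log2) in the authors' deposited table, the split of the 13 passed peaks turns to 5 lower and 8 higher. In that reading REL (distal), NFKBIE (3' UTR), TNFAIP3 (proximal) and RELA (631 bases, at -0.04) remained lower. The RELA peak of 271 bases, at 0.01, counted as higher. The authors' FDR was kept and not computed anew against this median, so it does not carry over to these signs.

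**Figure D3:**
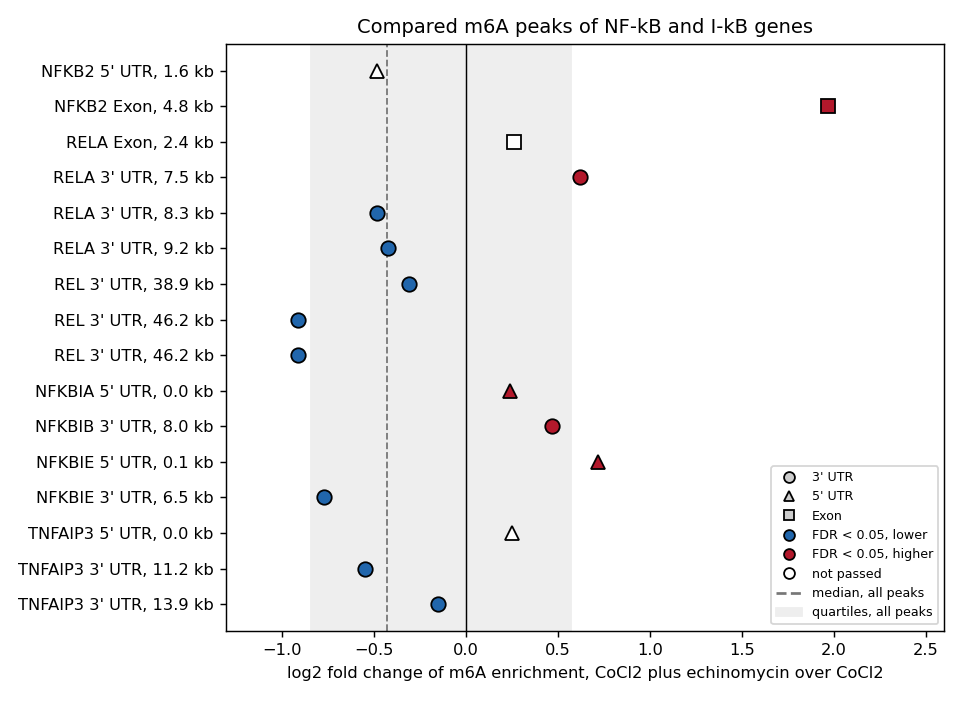
log2 fold change of m6A enrichment, CoCl2 plus echinomycin over CoCl2, for the 16 compared peaks, labelled by region and distance from the gene start (authors' deposited table). The dashed line is the median of all peaks (-0.43) and the band their quartiles (-0.84 to 0.57); the distal REL site at -0.91 lies below the band, and NFKB2 at 1.97, RELA at 0.62 and NFKBIE at 0.72 lie above it.

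After the combined treatment a listed peak was found in 18 of 19 kinase and adaptor genes at 1 FPKM or more, 17 of 17 ubiquitin and degradation factors, 16 of 17 target genes and 6 of 9 atypical I-kB and cofactor genes, against 82.1% of all genes at that level. For the comparison with CoCl2 alone, each gene is represented by its compared peak of lowest p, and by that measure 53.1% of 11126 genes in the authors' deposited table were lower and 22.8% higher. Of the NF-kB and I-kB genes all 7 passed, 4 of them lower and 3 higher, against 75.9% of all compared genes. Of those compared genes, 8080 lay at 1 FPKM or more. This background was not matched to the 7 genes or to the pathway lists in input level or number of peaks. Among kinases and adaptors that carry the signal to I-kB, 13 of 16 compared genes were lower and 2 higher, with a median log2 value of -0.64 in the authors' deposited table, against -0.50 over all genes. RIPK1, a kinase at the tumour necrosis factor receptor, was at -0.84 (FDR 1e-122), BIRC2, a ubiquitin ligase, at -0.70 (FDR 6.3e-55) and TRAF1, a receptor adaptor, at -0.54 (FDR 6.3e-57) in the authors' deposited table. By the authors' deposited table, the 2 that rose were TRAF3, a brake of the non-canonical pathway, at 0.99 (FDR 6.2e-09) and TBK1, an I-kB kinase relative, at 1.01 (FDR 0.037). TRAF3 also had a peak that fell.

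Among ubiquitin and degradation factors, 7 of 13 were lower and 4 higher, with a median of -0.48 (log2) in the authors' deposited table, near the shares and the median of all genes. The deubiquitinase gene OTULIN stood at -0.64 (FDR 4e-50) in the authors' deposited table, beside another of its peaks that rose, the ligase scaffold gene CUL1 at -0.67 (FDR 1.3e-23) and OTUD7B, a further deubiquitinase gene, at -0.54 (FDR 2e-17), also beside a peak that rose. Higher in the authors' deposited table were the ubiquitin-conjugating enzyme genes UBE2N at 0.70 (FDR 1.3e-13) and UBE2D3 at 0.78 (FDR 3.2e-13), and CYLD, a deubiquitinase that restrains NF-kB, at 0.49 (FDR 0.0014). UBE2D3 and CYLD each had a peak that fell.

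At 1 FPKM or more, 65.4% of all genes had a compared peak. Of the genes of atypical I-kB proteins and nuclear cofactors, only 2 of 9 did. Both fell in the authors' deposited table, AKIRIN2, a nuclear cofactor, at -0.68 (FDR 4e-50) and NKRF, a repressor of NF-kB targets, at -0.93 (FDR 3.2e-27). Among known NF-kB target genes 10 of 14 were lower and 2 higher, with a median of -0.62 (log2) in the authors' deposited table. Over all compared genes 53.1% were lower and 22.8% higher, with a median of -0.50 (log2). The cytokine gene TNF stood at -1.18 (FDR 1.3e-41) in the authors' deposited table, SOD2, a mitochondrial superoxide dismutase gene, at -0.73 (FDR 2.5e-56) and GADD45B, a stress gene, at -0.67 (FDR 2e-49). Higher values in the authors' deposited table were those of CD44, an adhesion receptor gene, at 0.33 (FDR 2e-44), beside a peak that fell, and PTGS2, the cyclooxygenase-2 gene, at 0.63 (FDR 0.0043).

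**Figure D4:**
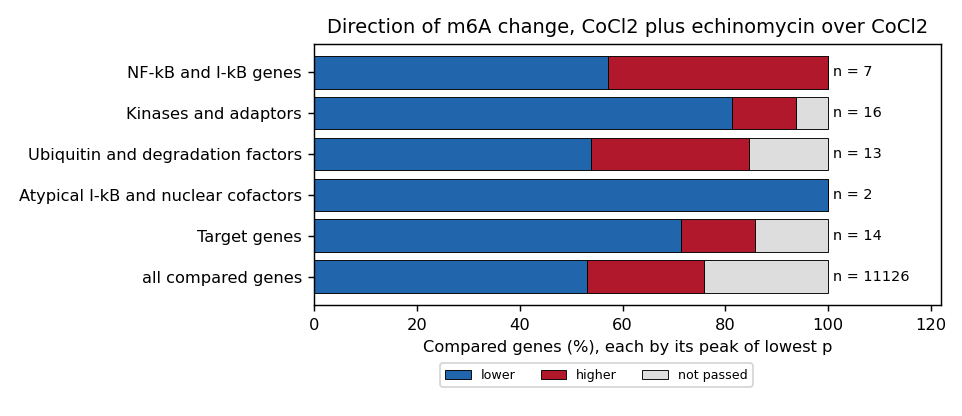
Percent of compared genes that were lower, higher or not passed at the authors' FDR under 0.05, each gene by its peak of lowest p, for the NF-kB and I-kB genes, the 4 pathway lists and all 11126 genes. The kinases and adaptors show 13 of 16 genes lower and the target genes 10 of 14, against 53.1% of all compared genes.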

How the data were processed

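The 6 libraries (3 IP, 3 input) were grouped by their titles. FPKM per gene and input library was deposited by the authors, and 6 other per-sample columns of that table were left aside. Per peak, the authors' list holds a linear ratio of IP over input (fold enrichment), a p-value deposited by the authors, and log10 p and FDR, read as a score. Their table of compared peaks, as deposited, holds a log2 fold change, a p-value and a log10 FDR (score). The tools named, per the submitters' processing notes, are HISAT2, fastp, ChIPseeker and HOMER, without roles. The peak caller, FPKM tool and genome build were not given in the sources used here. Coordinates are printed as deposited, apart from the promoter sequences (RefSeq, GRCh38.p14).

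Genes were matched by name. A compared peak passed where the authors' FDR was under 0.05, whatever its fold, and overlap needed 1 exonic base. No test was run beyond the authors' own. The p-values therefore cover whatever spread the authors' method used. Members, the 4 pathway lists and all rules were chosen with earlier results of these data known. Named pathway genes are up to 3 per list and direction by lowest p. The call function was tested on simulated data, and the overlap function on hand-set intervals of known overlap. Python 3.11.15, numpy 2.4.6, pandas 2.3.3 and matplotlib 3.10.9 were used. Alternatives covered the FDR, a fold limit, centring, the peak that stands for a gene, overlap, and left-out replicates.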

Additional observations from a re-analysis of the deposited data

How the results depend on the processing

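With a 2-fold limit beside the FDR, 0 of the 16 compared peaks were lower and 1 was higher. At an FDR under 0.01 the lower peaks stayed at 8 and the higher ones came to 2. Centred on the median of all peaks, 5 were lower and 8 higher by sign, with the authors' FDR kept and not computed anew. With the overlapping REL peaks counted once, an alternative chosen after seeing the data, 7 were lower. As a mean over a gene's peaks, the log2 fold change came to -0.02 for NFKBIE, -0.005 for RELA, -0.15 for TNFAIP3, -0.71 for REL and 0.75 for NFKB2. The decreases of NFKBIE and RELA thus rest on which peak is taken. The REL mean takes the overlapping pair as 2 peaks, which weights it toward their value. RELA turned to 0.62 with its peak of highest absolute log2 fold change, since its peaks differ in sign. For NFKB2 the longest peak was not defined, because both of its compared peaks have 120 bases. The value taken for it there, -0.48, is that of the 5' UTR peak, which did not pass (FDR 0.29) and overlapped no listed peak. The other 5 compared genes kept their sign under these choices. The listed peaks numbered 18 at a fold enrichment of at least 2. Leaving out 1 input library moved the mean FPKM between 8.31 and 8.51 for REL, 9.51 and 9.56 for RELB, 10.0 and 10.6 for NFKB1, 10.3 and 11.0 for NFKBIB, 14.6 and 15.1 for NFKBIE, 17.4 and 18.9 for NFKB2, 23.3 and 23.9 for TNFAIP3, 39.5 and 39.7 for RELA, and 44.4 and 46.8 for NFKBIA. No paired analysis was possible because the tables hold no IP values per replicate. No test across libraries was run here beyond the authors' own, whose handling of replicates was not given in the sources used. Without depth, the error behind each FPKM value is known only from the 3 libraries.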
